A study of Mus musculus with 6 samples.

Results

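A set of 10 genes of the voltage-gated calcium channel family was followed through a Kdm6b knockdown in mouse cerebellar granule neurons. They were the 10 of the 23366 genes in the deposited count table whose symbols were Cacna1a, Cacna1b, Cacna1c, Cacna1d, Cacna1e, Cacna1g, Cacna1h, Cacna2d1, Cacna2d2 and Cacnb4, so 7 encode pores and 3 encode auxiliary subunits. All 10 were among the 15731 genes that passed the filter on low counts. The granule neurons were C57BL/6 cells isolated from cerebella of postnatal day 7 pups, with animals of a litter combined, on a Percoll gradient, and were infected with lentivirus on day 1 in culture. The 3 knockdown libraries carried pLKO.1 with 1 short hairpin against Kdm6b, a histone H3 lysine 27 demethylase. The 3 control libraries carried empty pLKO.1, which holds no hairpin, so every library had been through the same vector and infection. The series calls the libraries biological replicates but does not say whether they came from separate litters. The sources used here do not give the day of harvest, nor which cultures, if any, received brain-derived neurotrophic factor.

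A voltage-gated calcium channel opens on depolarisation and lets calcium into the cell. Its alpha1 subunit forms the pore and sets the class: CaV2 channels (P/Q-, N- and R-type) trigger transmitter release at nerve terminals, L-type channels couple depolarisation to gene expression, and T-type channels open near the resting potential. Beta subunits sit on the cytoplasmic side of CaV1 and CaV2 pores and bring them to the membrane, and alpha2delta subunits are anchored to the outer face and raise the number of channels at the surface. In granule cells these channels serve firing, dendritic calcium entry and release from the parallel fibres, and mutations of Cacna1a, Cacna2d2 and Cacnb4 give ataxic mice.

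The member results turn on Cacna1b and Cacnb4, and on Cacnb1 and Cacnb3, 2 other beta genes. The 100 bases ahead of each start site are shown because the blocked fits called these channel genes (Cacnb4 only in DESeq2), with every CG dinucleotide in capitals. They are RefSeq promoter sequences of GRCm38.p6, 5′ to 3′ on the gene's strand, at chr2:24763153-24763252 (minus) for Cacna1b, chr2:52676144-52676243 (minus) for Cacnb4, chr11:98022628-98022727 (minus) for Cacnb1 and chr15:98634667-98634766 (plus) for Cacnb3. Where a gene had several starts, the one with the most CG was used.
Cacna1b: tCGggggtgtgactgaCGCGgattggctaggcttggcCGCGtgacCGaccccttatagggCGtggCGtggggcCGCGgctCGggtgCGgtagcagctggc
Cacnb4: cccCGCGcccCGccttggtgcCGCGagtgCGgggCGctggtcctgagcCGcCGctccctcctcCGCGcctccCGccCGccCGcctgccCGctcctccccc
Cacnb1: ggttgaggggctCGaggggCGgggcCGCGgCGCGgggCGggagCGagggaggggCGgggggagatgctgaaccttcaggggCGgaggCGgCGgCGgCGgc
Cacnb3: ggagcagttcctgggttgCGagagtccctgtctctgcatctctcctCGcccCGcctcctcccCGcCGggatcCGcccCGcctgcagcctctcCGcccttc

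In the 300-base windows around these starts (250 before, 50 after), CG occurred 35 times for Cacna1b, 40 for Cacnb4, 34 for Cacnb1 and 29 for Cacnb3, against a median of 7 over 32851 windows. The share of all windows with at least as many was 6.95%, 3.91%, 7.73% and 12.9%. The comparison is unlike: it counts every window, while the richest start was taken for genes with several. The other starts held 27 and 5 for Cacnb4, 3 for Cacnb1 and 7 for Cacnb3. CG reads the same on both strands, so 1 count covers both. High CG was not limited to these 4 starts: the richest windows of Cacna1c and Cacna1d held 57 and 63, and that of Cacna1e held 11. RefSeq windows were found for 7 of the 10 members. These counts describe the sequences, and no chromatin measurement was used here.

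Gene counts were 50326298 to 88214069 per library, and the 10 members together took 0.178 to 0.234% of them. Kdm6b stood at 257, 146 and 170 CPM (gene counts scaled to library size with TMM factors) in control replicates 1, 2 and 3 and at 88.8, 63.3 and 79.8 in the knockdowns. The groups did not overlap, and its log2 fold change was −1.31 (SE 0.25, edgeR quasi-likelihood adjusted p = 0.216), or −1.28 (SE 0.11, adjusted p = 0.0282) with the replicate number as a block, a call that ended without pair 1 or 2 (0.0933 and 0.0515). The defining granule cell genes were present: Gabra6 averaged 138 ± 25.1 CPM in controls and 132 ± 34.3 in knockdowns (SD, n = 3 each), Gabrd 90.7 ± 13.3 and 31.9 ± 15.2, and Grin2c 153 ± 65.6 and 74.1 ± 36.4. The 15 granule cell markers summed to 5326 to 7347 CPM in controls and 5213 to 7288 in knockdowns. These sums joined genes whose means differed in opposite directions. Cbln1 averaged 1168 ± 292 CPM in controls and 1720 ± 434 in knockdowns, and Slc17a7 479 ± 227 and 207 ± 23.9. Neither passed in either edgeR fit. With the block 2 of the 15, Etv1 and Grm4, fell and 0 rose. The 9 precursor genes (8 tested) summed to 536 to 1301 and 617 to 1284 CPM, and with the block Mycn and Barhl1 rose and Mki67 fell. In control 1, Ccnd2 gave 254 and Ccnd1 102 of the 536 CPM. Atoh1 was at 1 to 76 reads per library. The 12 pericyte, fibroblast and muscle markers summed to 13258 to 26715 CPM in controls and 4418 to 12138 in knockdowns, and 7 of the 12 fell with the block. Of other cell types, 10 astrocyte markers summed to 1331 to 3336 and 864 to 3515 CPM, 10 oligodendrocyte markers to 257 to 1288 and 176 to 972, and 10 GABAergic interneuron markers to 340 to 698 and 214 to 548. Microglia markers (10) gave 43.8 to 109 and 9.86 to 52.6 CPM, endothelial markers (8) 90.4 to 167 and 70.1 to 182, and Purkinje markers (8 of 10 tested) 253 to 298 and 249 to 315, with Pcp2 at 0 to 2 reads per library. Some sums rested largely on 1 or 2 genes. In control 2, Tmem119 gave 42.7 of 43.8 microglia CPM, with Cx3cr1 and Aif1 at 0, and Cdh5 was at 73.6 with Cldn5 at 0.02. In control 1, Rgs8 gave 234 of 298 Purkinje CPM. In control 2, Pdgfra and Cspg4 gave 99.4 and 55.0 of 257 oligodendrocyte CPM, with Olig1 at 20.5 and Mag at 2.12. These sums, like that of the precursor genes, do not by themselves show those cell types in every library. Transcripts of markers of other cell types were thus present. In bulk RNA, fewer cells of a type and less RNA per cell cannot be told apart. The part of the connective tissue and granule cell markers in the channel results was not tested.

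Without the block, none of the 10 channel genes passed an adjusted p of 0.05 in edgeR, where 0.00636% of all genes tested did (1 of 15731). One member, Cacnb4, had an unadjusted p under 0.05, as did 10.6% of all genes. DESeq2 and limma-voom also called 0 of the 10. With the replicate block, 1 member fell, Cacna1b, and none rose, where 7.98% of all genes passed (5.4% lower, 2.58% higher). The median log2 fold change of the 10 was −0.07 in either fit, against 0.02 over all genes. None of the 10 had groups that did not overlap, where 16.7% of all genes did. Of the 10, 3 (Cacna1a, Cacna1b and Cacnb4) were below the control of the same number in all 3 pairs, where 28.5% of all genes were, and 0 of 10 were above it in all 3, where 31.7% were. The shares lower in all pairs and called were thus near the background.

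**Figure D1:**
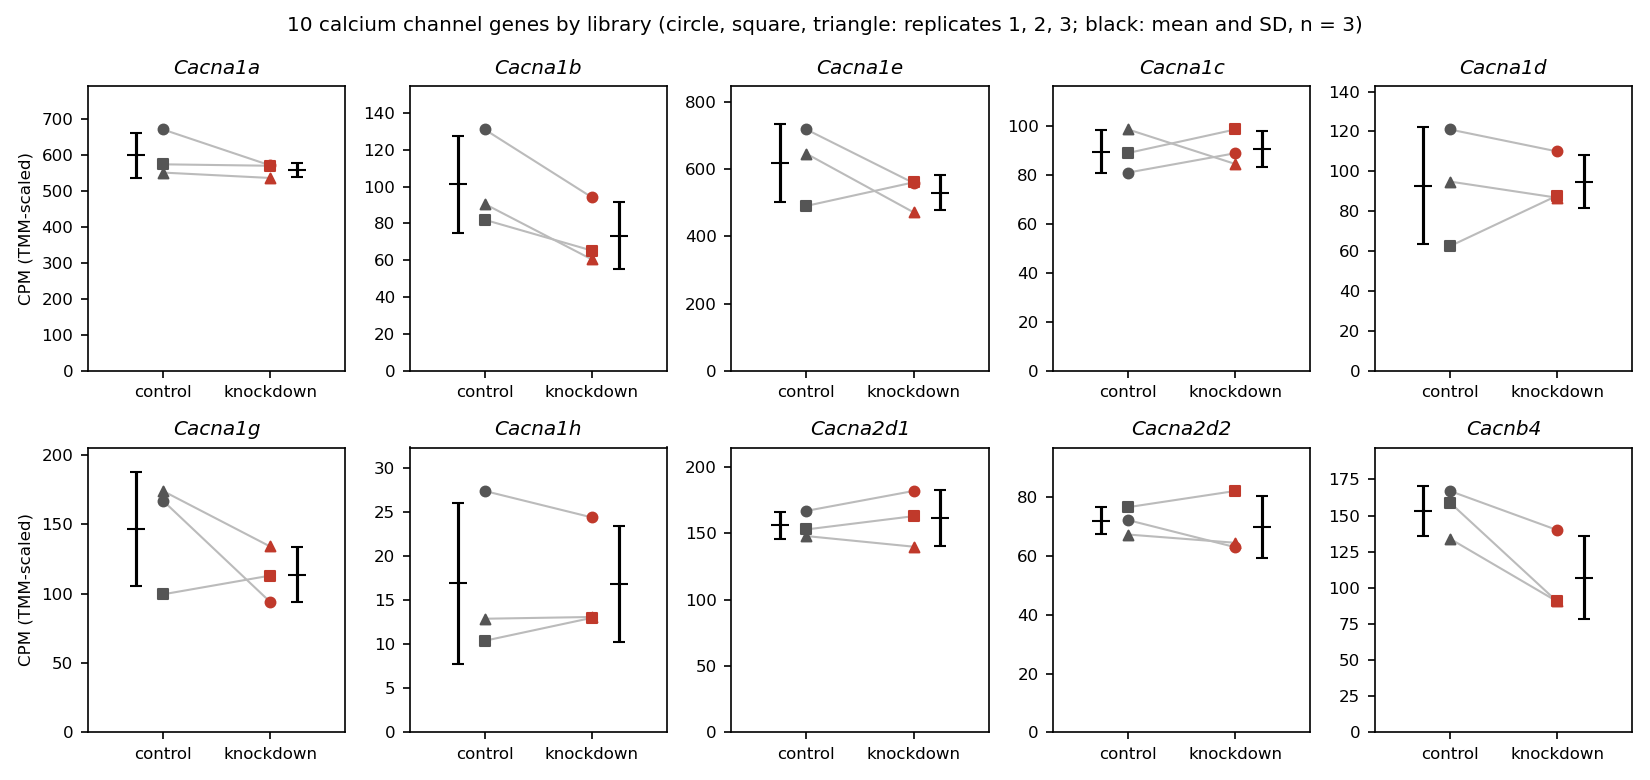
CPM of each of the 10 genes by library, with lines joining control and knockdown libraries of the same replicate number; black bars give the mean and SD (n = 3). Cacna1a, Cacna1b and Cacnb4 slope down in all 3 pairs, as 28.5% of all genes tested did, and every gene's groups overlap.

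Between genes, levels were compared as CPM per kb of exon, over all 6 libraries. Cacna1a, the P/Q-type pore, stood highest at 50.8 ± 4.14 CPM per kb (SD, n = 6; 47.0 to 58.8), above every library of Cacna1e, the R-type pore, at 22.7 ± 3.70 (18.7 to 28.4). Cacnb4 at 14.5 ± 3.69 (10.1 to 18.7), Cacna1g at 12.9 ± 3.35 and Cacna2d1 at 12.8 ± 1.21 came next, and their ranges overlapped. Cacna2d2 at 8.91 ± 0.937, Cacna1b at 8.78 ± 2.55 and Cacna1d at 7.43 ± 1.61 also overlapped one another. Cacna1c at 4.25 ± 0.341 (3.82 to 4.65) lay below all libraries of Cacna1d (4.95 to 9.60), and Cacna1h was lowest at 1.73 ± 0.731 (1.06 to 2.80). The middle of this order depends on the length used: per kb of the longest annotated transcript, Cacna2d1 at 21.4 lay above Cacnb4 at 15.9 and Cacna1g at 15.5, and Cacna1d at 9.71 above Cacna1b at 8.96. The first and second place, and the last, were the same with either length. Per kb of exon, the middle also differed between the groups. Cacnb4 was at 17.1 ± 1.92 CPM per kb in controls, above Cacna2d1 at 12.6 ± 0.816 (SD, n = 3 each). In knockdowns it was at 11.9 ± 3.18, below Cacna2d1 at 13.0 ± 1.69. Cacna1b lay above Cacna2d2 in controls (10.2 ± 2.64 and 9.05 ± 0.585) and below it in knockdowns (7.38 ± 1.84 and 8.78 ± 1.34). Both swaps depend on the length used: per kb of the longest transcript, Cacnb4 lay below Cacna2d1 and Cacna1b below Cacna2d2 in both groups.

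Cacna1a was at 672, 575 and 552 CPM in control replicates 1, 2 and 3 and at 572, 571 and 537 in the knockdowns. Knockdown libraries sat within a narrow band at the lower edge of the controls. The mean was 600 ± 63.3 against 560 ± 19.8 (SD, n = 3 each), a log2 fold change of −0.10 (SE 0.14; edgeR adjusted p = 0.822).

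Cacna1b, the N-type pore that opens on arrival of the action potential at many terminals, was at 131, 82.0 and 90.6 CPM in controls and 94.2, 65.3 and 60.5 in knockdowns. Replicate 1 was the highest in both groups, and each knockdown library was below its own control although the groups overlapped. Means were 101 ± 26.2 and 73.3 ± 18.3 CPM. The log2 fold change was −0.47 (SE 0.25; edgeR adjusted p = 0.546), and with the block it was −0.46 (SE 0.08; edgeR adjusted p = 0.0414). The blocked call ended without any 1 of the pairs, at an edgeR adjusted p of 0.137, 0.0593 and 0.0844 without pair 1, 2 and 3, with fold changes of −0.46, −0.55 and −0.41. Without the block, the estimate was −0.24 without control 1 and −0.69 without knockdown 1.

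Cacna1e was at 717, 490 and 645 CPM in controls and 558, 560 and 471 in knockdowns. Of its pairs, 2 were lower and 1 was higher. The change was −0.22 in log2 (SE 0.19; edgeR adjusted p = 0.694), from 617 ± 116 to 530 ± 50.6 CPM. Leaving out a library or a pair gave −0.42 to −0.09. The 3 CaV2 genes thus had negative estimates, of which only that of Cacna1b, with the block, passed the test.

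Among the L-type pores, Cacna1c, which also serves heart and smooth muscle, was at 81.0, 89.0 and 98.6 CPM in controls and 88.9, 98.6 and 84.5 in knockdowns. Its log2 fold change of 0.02 (SE 0.12; edgeR adjusted p = 0.968) was small beside its error. Cacna1d, which opens at lower voltages than Cacna1c, was at 121, 62.5 and 94.9 CPM and then 110, 87.8 and 86.8. The knockdown values lay inside the control range, and the log2 fold change was 0.03 (SE 0.25; edgeR adjusted p = 0.976).

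Of the T-type pores, Cacna1g was at 167, 99.5 and 174 CPM in controls and 94.1, 113 and 134 in knockdowns. Control replicate 2 stood well below the other two, and its pair alone was higher in the knockdown. The log2 fold change was −0.36 (SE 0.25; edgeR adjusted p = 0.627), and −0.58 and −0.23 without control 2 and control 3. With the block it was −0.09 and −0.61 without pair 1 and pair 2. Cacna1h was at 27.4, 10.4 and 12.9 CPM and then 24.4, 13.0 and 13.1. Replicate 1 stood well above the others in both groups, and the log2 fold change was 0.00 (SE 0.44; edgeR adjusted p = 0.998). Its coefficient of variation, 54.4% in controls and 39.0% in knockdowns, was the largest of the 10 in each group. Replicate 1 was likewise the highest in both groups for Cacna1a, Cacna1b, Cacna1d, Cacna2d1 and Cacnb4.

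The alpha2delta genes encode extracellular subunits, and Cacna2d1 is also the binding site of gabapentin. Cacna2d1 was at 167, 153 and 148 CPM in controls and 182, 163 and 140 in knockdowns, a log2 fold change of 0.05 (SE 0.13; edgeR adjusted p = 0.907). Cacna2d2 was at 72.1, 76.5 and 67.2 CPM and then 62.9, 82.0 and 64.4, a change of −0.04 (SE 0.14; edgeR adjusted p = 0.926). Both varied by 6.49 and 6.47% among controls, the least of the 10 genes. With these errors neither gene's level could be told apart between the groups. Their shares of the summed alpha2delta level per kb were 38.3 ± 0.649 and 27.6 ± 1.98% in controls and 38.7 ± 3.87 and 26.0 ± 2.88% in knockdowns.

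Cacnb4, the beta subunit altered in the lethargic mouse, was at 167, 159 and 134 CPM in controls and 140, 90.6 and 90.6 in knockdowns. Only knockdown replicate 1 reached into the control range, where it exceeded control replicate 3. Means were 154 ± 17.2 and 107 ± 28.5 CPM. The log2 fold change was −0.52 (SE 0.21; edgeR adjusted p = 0.466), and the unadjusted quasi-likelihood p of edgeR was 0.0435. With the block it was −0.55 (SE 0.12; edgeR adjusted p = 0.0588), which did not pass the threshold. DESeq2 with the block was the 1 alternative of 22 that called it, at −0.56 and an adjusted p of 0.00108, in a fit that called 23.7% of all genes.

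The 3 other beta genes were read beside it. Cacnb1 was at 24.7, 19.9 and 17.4 CPM in controls and 41.2, 33.7 and 25.5 in knockdowns. The groups did not overlap, and with the block Cacnb1 rose by 0.68 in log2 (SE 0.08; edgeR adjusted p = 0.0282; without the block 0.392). Cacnb3, the most abundant beta gene per kb, was at 104, 98.4 and 76.4 CPM and then 137, 124 and 95.3. It was higher in each pair, with a blocked log2 fold change of 0.35 (SE 0.06; edgeR adjusted p = 0.0453; without the block 0.546). The Cacnb1 call ended without pair 1 or 2 (edgeR adjusted p = 0.117 and 0.0598), and that of Cacnb3 without pair 1, 2 or 3 (0.173, 0.106 and 0.0995). Cacnb2 was low, at 1.99 to 7.46 CPM, and like Cacnb4 was lower in all 3 pairs. Its blocked log2 fold change was −0.56 (SE 0.17; edgeR adjusted p = 0.0982; without the block 0.717), so it did not pass in either fit.

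**Figure D2:**
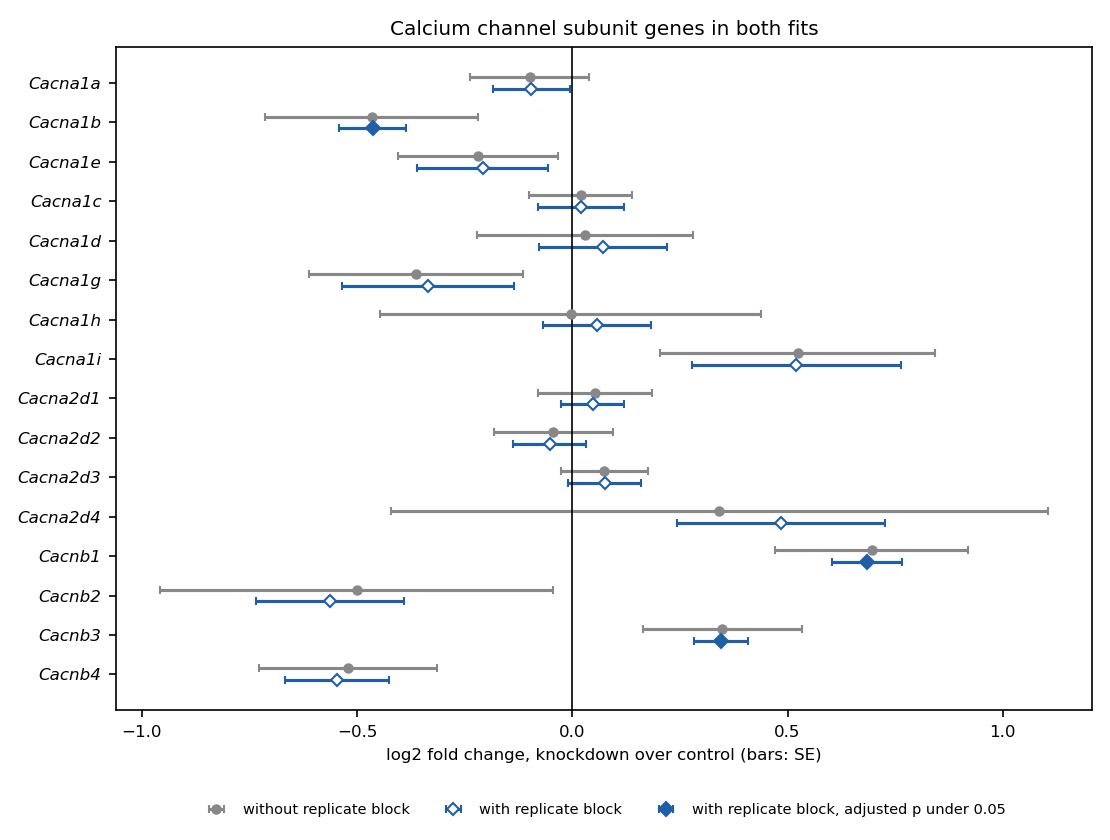
Log2 fold change (knockdown over control, bars SE) of the 10 genes and of 6 further subunit genes, without the block (grey circles) and with it (blue diamonds, filled where the edgeR adjusted p was under 0.05). Cacna1b lies left of 0 and Cacnb1 and Cacnb3 right of 0 among the filled diamonds.

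Because the estimate of Cacnb4 was opposite in sign to those of Cacnb1 and Cacnb3, the mixture of beta genes was set out within each library. Scaling between libraries has no part there. Reads of Cacnb4 per read of Cacnb3 were 1.60, 1.62 and 1.76 in controls and 1.03, 0.732 and 0.951 in knockdowns. Per read of Cacnb1 they were 6.77, 7.99 and 7.74 and then 3.40, 2.69 and 3.55. Neither ratio overlapped between the groups. Per kb of exon, Cacnb4 made up 37.0, 37.6 and 39.1% of the summed beta level in controls and 26.5, 20.7 and 25.3% in knockdowns, or 37.9 ± 1.09 against 24.2 ± 3.06%. The share of Cacnb3 was 51.1 ± 1.22 and 60.2 ± 2.77%, and that of Cacnb1 10.0 ± 0.757 and 14.9 ± 0.704%. These mixtures were chosen after the values were seen and carry no test. With the longest transcript or with plain counts the Cacnb4 difference was −11.9 or −15.9 points beside −13.7.

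The pores were set out in the same way, with Cacna1i (T-type), Cacna1f and Cacna1s (L-type, both near 0) included. CaV2 genes made up 65.0, 71.1 and 65.5% of the summed pore level per kb in controls and 62.6, 60.3 and 64.1% in knockdowns, a difference of −4.85 points without overlap, or −2.91 without control 2. Of the class, Cacna1e made up 18.7 ± 1.27 and 16.9 ± 0.172%, also without overlap, while the shares of Cacna1a (40.7 ± 4.48 and 39.6 ± 2.11%) and Cacna1b (7.75 ± 0.707 and 5.91 ± 1.20%) overlapped. T-type genes made up 26.3, 20.6 and 24.9% and then 27.4, 30.8 and 26.2%, which overlapped. The T-type difference of 4.21 points was 2.54 without control 2, and on plain counts, not per kb, the T-type shares did not overlap (14.8 to 19.0% in controls and 19.1 to 22.4% in knockdowns). L-type genes made up 8.90 ± 0.636 and 9.54 ± 0.560%, also overlapping. Within the T-type class, Cacna1g was read against Cacna1i: reads of Cacna1i per read of Cacna1g were 1.26, 1.16 and 0.746 in controls and 2.51, 2.41 and 1.08 in knockdowns. Each knockdown library was above its own control, though controls 1 and 2 exceeded knockdown 3. Cacna1i itself was at 210, 115 and 130 CPM and then 236, 273 and 145, a log2 fold change of 0.52 (SE 0.32; edgeR adjusted p = 0.590, and 0.203 with the block). It was 0.15 with the block without pair 2, and 0.31 to 0.83 without single libraries.

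**Figure D3:**
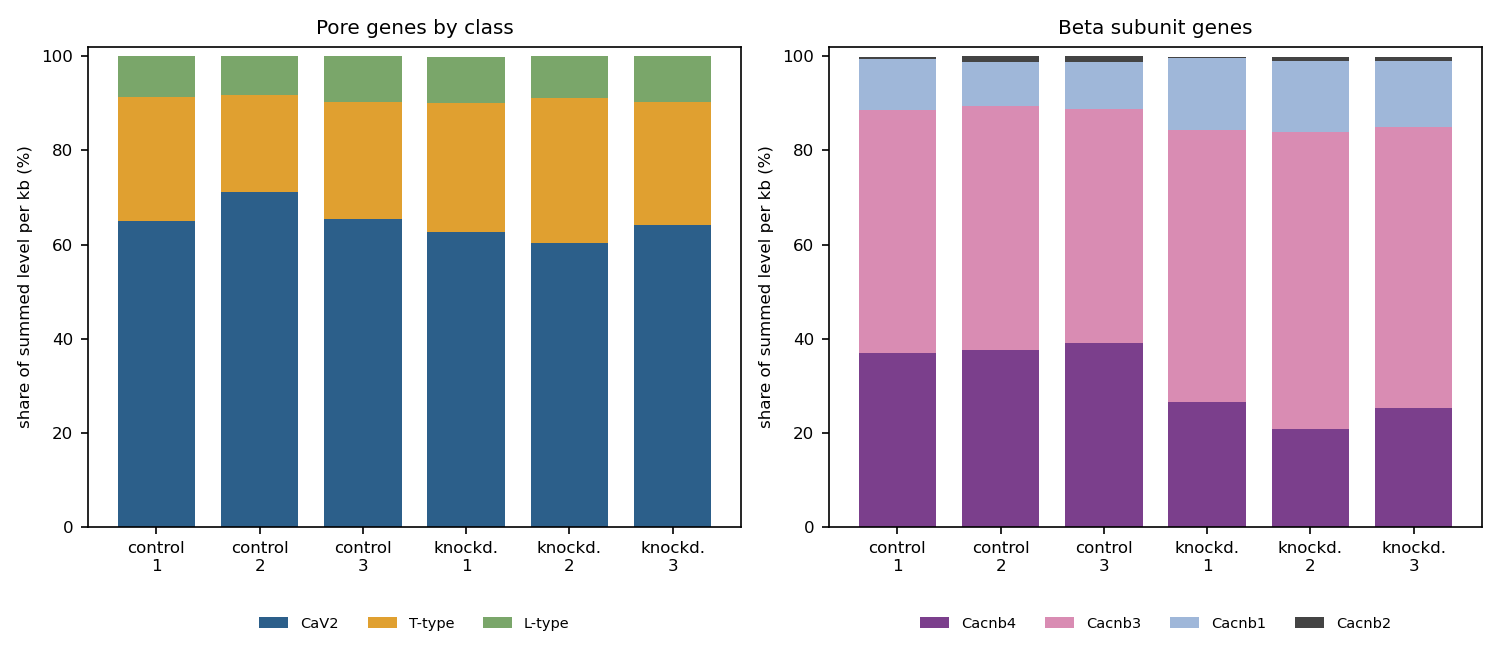
Share of the summed level per kb of exon, in percent, by library: pore genes by class (left) and the 4 beta genes (right). Cacnb4 takes 37.0 to 39.1% of the beta level in controls and 20.7 to 26.5% in knockdowns, while the 3 pore classes differ by a few points.

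The hairpin strand is shown with the run ACAAGTG (bases 8 to 14, in capitals), which was picked because of earlier results on these libraries, beside its places in the members' 3′ UTRs. The UTR searched was the longest annotated for each gene in GENCODE M21, on the transcript's own strand only, and sites are 27 bases of GRCm38 at chr1:154391621-154391647, chr6:118588180-118588206 and chr14:30041936-30041962, all on the minus strand.
hairpin: gttcgttACAAGTGagaactc
Cacna1e: tgtactggggACAAGTGagtatagaga
Cacna1c: tgcatgctaaACAAGTGctttagctct
Cacna1d: agacttttgtACAAGTGatttcatgcc

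The run occurred in 3 of the 10 UTRs, and in 12.5% of the 14029 tested genes with a UTR searched. The UTRs of Cacna1e, Cacna1c and Cacna1d are long (7662, 6652 and 7621 bases), and 39.5% of the 679 tested genes with at least 5000 bases held it. The longest run shared with the hairpin was 9 bases for Cacna1e and Cacna1d and 7 for Cacna1c. None of the 3 passed the test in either fit, and these letters were not in the UTRs of Cacna1b (2683 bases) or Cacnb4 (6169 bases). Of the further subunit genes searched, Cacnb2 alone held the run (UTR of 1832 bases). It was lower in all 3 pairs but did not pass in either fit. Any effect of the hairpin through this run was not tested. A match of letters is a description and not a site of action.

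Genes that work with the channels were counted in the fit with the block, since without it edgeR and limma-voom called none of them. Without the block, unadjusted edgeR p was under 0.05 for 8 release site partners, 3 calcineurin and NFAT genes, 2 genes each of stores and extrusion and 1 further subunit gene, beside 10.6% of all genes. DESeq2 without the block called 2 release site partners, 2 extrusion genes and 1 calcineurin or NFAT gene, and 3.84% of all genes. With the block the shares to read against are the 2.58% of all genes called higher and 5.4% called lower. Every call named below but those of the beta genes ended without pair 1 (edgeR adjusted p = 0.0985 to 0.136) and without pair 2 (0.0515 to 0.0753), and held without pair 3. Of 8 tested subunit genes outside the 10, 2 rose (Cacnb1 and Cacnb3) and the median log2 fold change was 0.43. That median rests on genes with few reads. It lies between Cacna1s (0.381, 5 to 20 reads per library) and Cacna2d4 (0.485, 26 to 258 reads). The highest estimate was that of Cacna1f (0.901, 0 to 47 reads). Of 14 tested channel regulators 1 fell: Lrp1, an endocytic receptor, was at 791, 876 and 1571 CPM in controls and 476, 534 and 833 in knockdowns (−0.79, SE 0.09; edgeR adjusted p = 0.0282). Of 18 release site partners 2 rose and 2 fell, and 7 had groups that did not overlap, where 16.7% of all genes did. Rims3 and Erc1, active zone proteins that lie with CaV2 channels, fell by 1.22 (SE 0.14) and 0.64 (SE 0.10) in log2 (edgeR adjusted p = 0.0282 and 0.0362). The vesicle priming factor Unc13b rose by 0.72 (SE 0.12) and the syntaxin Stx1a, which binds CaV2 pores, by 1.59 (SE 0.31), with edgeR adjusted p of 0.0409 and 0.04999. Stx1a was at 34.0, 12.7 and 34.6 CPM in controls and 95.9, 68.6 and 63.1 in knockdowns, so its call lies at the threshold although the groups are far apart.

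Of 14 genes of the calcium stores, the store channel Itpr3 and the store sensor Stim2 fell (−0.66, SE 0.08 and −0.53, SE 0.09; edgeR adjusted p = 0.0282 and 0.0410; 0.0725 for Stim2 with library totals and the block), and the plasma membrane channel Orai2 rose (0.83, SE 0.13; edgeR adjusted p = 0.0371). Of 10 extrusion genes 1 fell, the sodium-calcium exchanger Slc8a2, at 306, 618 and 242 CPM in controls and 165, 188 and 135 in knockdowns (−1.15, SE 0.20; edgeR adjusted p = 0.0430). The extrusion list had a median of −0.60, the lowest of the calcium lists, against 0.02 for all genes. None of 5 calcium-activated potassium channel genes passed (median −0.14). Of 10 calcineurin and NFAT genes 1 rose, the calcineurin inhibitor Rcan1, from 26.8 ± 2.24 to 47.1 ± 7.94 CPM (0.80, SE 0.12; edgeR adjusted p = 0.0392).

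**Figure D4:**
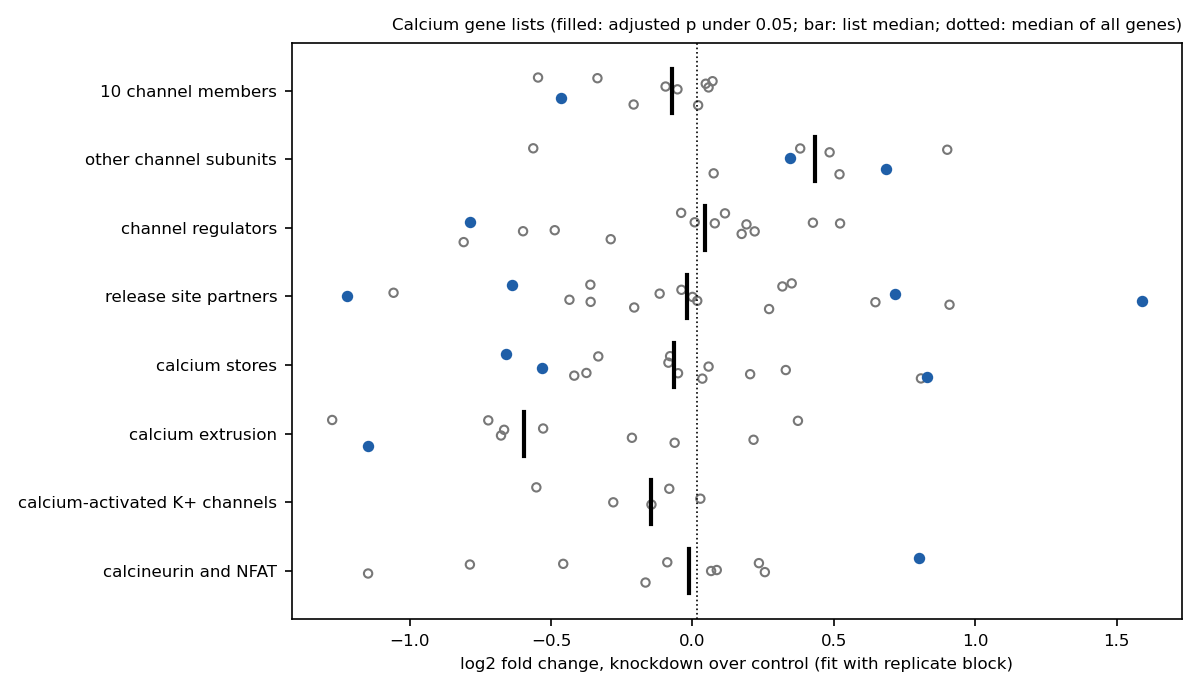
Log2 fold change with the replicate block for each gene of 8 calcium lists (filled where the edgeR adjusted p was under 0.05; bar, list median; dotted line, median of all genes, 0.02). The 10 channel members hold 1 filled point (Cacna1b, −0.46) and a median of −0.07, and the extrusion list has the lowest median, −0.60. The median of the other channel subunits rests on genes with few reads.

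Exons of Cacna1a, Cacna1d, Cacna1h, Cacna2d2 and Cacnb4 overlap genes on the opposite strand in the GENCODE annotation. The library kit keeps strand, but the sources used here do not say how strand was used in counting, so reads of those stretches may be misplaced. Tpsg1, which overlaps Cacna1h, had 0 reads in every library, and Chdh, which overlaps Cacna1d, had 6 to 51. The largest overlap was that of Cacnb4 with A430018G15Rik, 1433 bases. That gene was not found by name among the genes counted, and the part of the overlap in the Cacnb4 values was not tested.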

How the data were processed

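RNA from 3 control and 3 Kdm6b knockdown cultures was sequenced as stranded mRNA libraries with 50 bp single-end reads, per the labels' protocols. The authors deposited read counts per gene; Trimmomatic, TopHat2, HTSeq and mm9 appear in the submitters' processing notes, without versions. Gene names alone were matched to the GRCm38 tables, and no coordinates were converted. Rows naming no gene were left out of library sizes: reads outside genes were 12.1 to 15.0% of each library.

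Counts were tested with edgeR 4.0.16 (R 4.3.3; TMM factors, filterByExpr with minimum count 10 and total 15, quasi-likelihood test, Benjamini-Hochberg adjustment over 15731 genes), and the script was tested on simulated data. Called means an adjusted p under 0.05. A second fit added the replicate number as a blocking term. The replicate numbers come from the sample titles, which state no pairing. Same-numbered libraries deviated together (correlations 0.772, 0.709 and 0.701; other combinations −0.532 to −0.135). Deviations were taken from each group's mean, so they cancel within a group. Positive values for same-numbered libraries therefore push the other combinations to negative values, which are no separate evidence of pairing. Treating same-numbered libraries as pairs thus rests on the data. Other alternatives were DESeq2 1.42.0, limma-voom (limma 3.58.1), other scalings and filters, and leaving out libraries.

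The members and gene lists were chosen with earlier results of these data known. The genes named are all 10 members, Kdm6b, and up to 3 called genes per direction of each calcium list. The rule also names the first 3 genes of each marker list, which are given here as sums. The exceptions are Gabra6, Gabrd, Grin2c, Atoh1, Pcp2, Pdgfra, Cspg4, Olig1, Cx3cr1, Aif1, Cldn5 and Cdh5. Cacna1i, Cacna2d3, Cacna2d4, Cacnb2, Cacna1f, Cacna1s, Etv1, Grm4, Mycn, Barhl1, Mki67, Tmem119 and Rgs8 were named after their values were seen. So were Cbln1, Slc17a7, Ccnd1, Ccnd2 and Mag. Chdh, Tpsg1 and A430018G15Rik are named because their exons overlap those of members. A planned permutation test of pore class shares is not printed, because the members were chosen with results known; 3 against 3 cannot give an exact p below 0.1.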

Additional observations from a re-analysis of the deposited data

How the results depend on the processing

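The number of genes called, 1 in edgeR without the block, was 0 with library totals alone, 568 with DESeq2, 1256 with the replicate block, and with the block 1342 (RLE factors), 1350 (upper-quartile factors), 1276 (library totals), 1598 (no filter) and 3440 (DESeq2). Leaving out single libraries gave 0 each, and with the block 0, 53 and 1272 were called without pair 1, 2 and 3. With the block, 850 of the 1256 calls were lower, but with library totals and the block 553 of 1276 were. With the block, 972 of the 1342 calls were lower with RLE factors and 902 of the 1350 with upper-quartile factors. The balance of lower and higher calls thus turned with library totals and not with the other scalings tried. Cacna1b, Cacnb1 and Cacnb3 kept their signs with library totals and the block (−0.39, 0.75 and 0.42). Members called went from 0 to 1 with the replicate block under edgeR at each scaling and without the filter, and to 2 (Cacna1b and Cacnb4) under DESeq2 with the block. In edgeR the block changed the call of no other member. Leaving out any library or pair called no member. Cacna1b and Cacnb4 had negative estimates in all 22 alternatives. The Cacnb3 call also ended with no filter and the block (edgeR adjusted p = 0.0501), and that of Stim2 with library totals and the block (0.0725).

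Estimates near 0 turned sign, never past the threshold. Cacna1h (−0.004) was 0.004, 0.051 and 0.038 with upper-quartile factors, library totals and limma-voom, and 0.057 with the replicate block, then 0.040, 0.067, 0.128, 0.043 and 0.039 with the block and RLE, upper-quartile, library totals, no filter and DESeq2. Cacna2d2 (−0.04) was 0.022 with library totals alone and 0.018 with library totals and the block. Leaving out single libraries gave −0.374 to 0.533 for Cacna1h, −0.191 to 0.024 for Cacna2d2, −0.062 to 0.083 for Cacna1c, −0.189 to 0.268 for Cacna1d and −0.042 to 0.146 for Cacna2d1. With the block, Cacna1c was −0.037 and −0.060 without pair 1 and 2, Cacna1h 0.173 and 0.069 without pair 1 and 3, Cacna2d2 0.020 without pair 1, and Cacna1d −0.152 and Cacna2d3 −0.019 without pair 2. The cause was not tested. Members had 518 to 52053 reads per library, so the spread between libraries rather than counting limits these values.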
